A study of Rattus norvegicus with 23 samples.

Results

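The LSEC fraction of the 3D liver model that holds hepatocytes, LSECs and KCs (3DHLK) was compared with hepatocytes kept in a collagen sandwich (CS), both at day 12 of culture. The arrays were chosen by their sample titles, which give 3 arrays for each group, 6 of the 23 arrays of the series, and all 14217 genes with a named probe set were compared. The study measured RNA of hepatocytes, LSECs and KCs from monolayers, collagen sandwiches and multicellular cultures. Hepatocytes were isolated from female Lewis rats by collagenase perfusion, and the same livers gave the LSECs, which were set apart by how they attach and were kept on fibronectin. In the 3D models a detachable film of chitosan and hyaluronic acid was laid over a layer of hepatocytes, and LSECs, together with bought cryopreserved rat KCs in the 3DHLK model, were seeded on the film. The LSEC fraction was recovered at day 12 with magnetic beads that carried the SE-1 antibody, and KCs with beads against CD163. For the CS hepatocytes, which grow between layers of collagen gel without other added cells, the methods describe no bead step. No source used here states the age of the rats. Cell type, culture, the presence of other cells and bead separation differ between the groups together, so that their parts in any difference cannot be told apart.

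Hepatocytes make most plasma proteins and bile acids and carry out much of the intermediary metabolism of the liver. LSECs line the sinusoids as a fenestrated endothelium without a continuous basement membrane, clear macromolecules from blood through scavenger receptors such as Stab1 and Stab2, and lose these features readily in culture. Stellate cells and fibroblasts, which make collagens and contractile proteins once activated, and biliary cells can accompany hepatocytes through a collagenase isolation and expand in culture.

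The values are log2 expression values after RMA, which corrects background, gives all arrays one distribution and summarizes the probes of a probe set. Array medians were alike, at 7.46 in the LSEC arrays and 7.44 to 7.47 in the CS arrays, and the interquartile range was 2.94 to 3.08 in the LSEC fraction and 3.13 to 3.28 in CS. The 3′ minus 5′ difference of the control probe sets for glyceraldehyde-3-phosphate dehydrogenase, a sign of RNA quality, was −0.28 to −0.18 in the LSEC fraction and −0.092 to 0.015 in CS, and its part in the results was not tested. Replicates correlated across probe sets at 0.9935 to 0.9944 in the LSEC fraction and 0.987 to 0.9962 in CS, and LSEC with CS arrays at 0.9674 to 0.9752. The labels leave unsaid whether the 3 arrays of a group stand for separate animals or isolations, so the p-values rest on a spread between samples that may be technical.

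The largest differences between the LSEC fraction and CS hepatocytes were in genes that were high in CS and low in the LSEC fraction. At an adjusted p under 0.05 in limma, 3376 genes were called (23.7% of those tested), 1502 higher in the LSEC fraction (10.6%) and 1874 lower (13.2%). Large differences ran mostly one way. Past 1 log2 unit 105 genes were higher (0.739%) and 447 lower (3.14%), past 2 units 9 were higher (0.0633%) and 96 lower (0.675%), and past 3 units 1 was higher (0.00703%) and 36 were lower (0.253%). The 3 arrays of each group did not overlap in 51.4% of all genes, with the LSEC fraction above CS in 29.9% and below in 21.5%. The genes called higher had a median CS level of 7.91 and those called lower a median of 9.38.

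Over all genes the median log2 difference was 0.06, and it varied with the level of the gene. With the genes split by mean level into 10 bins of equal size, the medians of the 4 lowest lay between 0.136 and 0.215 and in the 5 highest between −0.074 and −0.032, so that a list of weakly expressed genes is to be read against the former. Leaving the 3 arrays of KC monolayers out of the fit gave 3051 genes higher and 2719 lower. The count of higher genes was 831 without CS replicate 2, 773 without CS replicate 3, 843 without LSEC replicate 2 and 838 without LSEC replicate 3. The levels of stromal, biliary, hepatocyte and sinusoidal markers against those of all genes are plotted next.

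**Figure D1:**
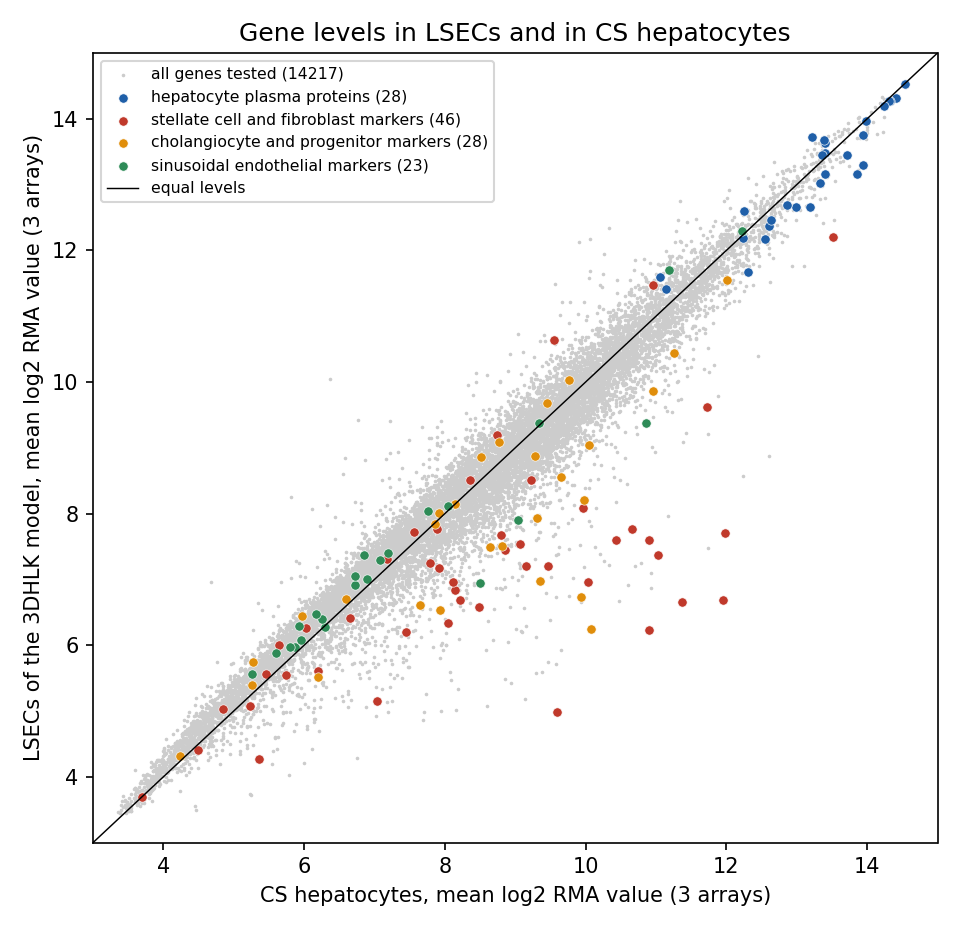
Mean log2 RMA value of each gene in CS hepatocytes (x axis, 3 arrays) and in the LSEC fraction of the 3DHLK model (y axis, 3 arrays), with all 14217 genes in grey, 4 marker lists in colour and the line of equal levels. The 28 plasma protein genes sit along the line at the top, and many of the 46 stellate cell and fibroblast markers lie far below it.

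Plasma protein genes, which mark hepatocytes, were high in both groups. Alb, which encodes albumin, read 14.56, 14.47 and 14.58 on the CS arrays and 14.54, 14.52 and 14.52 on the LSEC arrays (log2 difference −0.01, standard error 0.30, adjusted p = 0.988). These values overlap, but they lie near the arrays' highest values of 14.6 to 14.7, and Alb read 14.38 to 14.57 on average in all day 12 groups, so that the probe set cannot show whether its levels are equal. The standard error of Alb rests on the spread shared by all 8 groups. Its SD was 1.15 in KC monolayers, 0.060 in CS and 0.014 in the LSEC fraction. The mean over 28 plasma protein genes was 13.18, 13.28 and 13.24 in CS and 13.10, 13.15 and 13.16 in the LSEC fraction, against 7.38 in KC monolayers. Of these 28 genes 2 were higher (7.14%) and 5 lower (17.9%) in the LSEC fraction, against 10.6% and 13.2% of all genes. The median difference was −0.075. The higher ones were the vitamin D binding protein Gc (0.51) and the inter-alpha-trypsin inhibitor chain Itih2 (0.53), where the call of Gc was lost on leaving out any of the 6 arrays and that of Itih2 without LSEC replicate 3. The lower ones were led by the retinol carrier Rbp4 (−0.69), the apolipoprotein Apob (−0.63) and the protease inhibitor A2m (−0.63), whose call was lost under 6 alternatives. With 1 array left out, 1 to 4 were lower, the fewest without LSEC replicate 2. All 28 had a mean above 8 in both groups.

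Defining markers of sinusoidal endothelium were low in both groups and not called, so that the label was not borne out by these genes. Stab2 was at 6.01, 5.81 and 5.79 in CS and 5.94, 5.96 and 6.03 in the LSEC fraction (log2 difference 0.11, adjusted p = 0.564). Lyve1, a hyaluronan receptor, was at 5.58, 5.59 and 5.62 against 5.79, 5.94 and 5.90, a difference of 0.28 with adjusted p = 0.164. Both genes lay below the array medians in all 6 samples. The arrays of the groups overlapped for Stab2 and not for Lyve1.

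Pecam1, an adhesion molecule of endothelial junctions, had a mean of 6.2 in the LSEC fraction and 6.5 in CS (adjusted p = 0.215), and Vwf, which encodes von Willebrand factor, 6.0 and 5.6 (adjusted p = 0.158). Over 23 sinusoidal markers 2 were higher (8.7%) and 3 lower (13%) in the LSEC fraction, near the 10.6% and 13.2% of all genes. The higher pair was Fcgr2b (0.51), an Fc receptor of sinusoidal endothelium, and the adhesion molecule Icam1 (0.52). The lower ones were the growth factor Bmp2 (−1.54), the transcription factor Maf (−1.47) and the endocytosis gene Ehd3 (−1.13).

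The mean of the 23 sinusoidal markers was 7.53, 7.42 and 7.43 in CS and 7.38, 7.49 and 7.53 in the LSEC fraction, and the arrays overlap. Of 44 general endothelial markers 3 were higher (6.82%) and 6 lower (13.6%, 3 to 5 genes with 1 array left out), again near the shares of all genes. S1pr1, a sphingosine-1-phosphate receptor, was the highest of these differences (1.27, by 1 of its 2 probe sets), Klf2 (0.45, by 1 of 5 probe sets) and Erg (0.46, by 1 of 2) followed, and the caveolar protein Cav1 fell the most (−3.38, by all 3 probe sets). Both lists had a median of 0.17, which compares with 0.136 to 0.215 for all genes of low level.

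Most macrophage markers were low in both groups, with 6 of 38 above a log2 value of 8 in CS and 8 in the LSEC fraction. Cd14, a receptor for bacterial lipopolysaccharide, was among the higher ones, with means of 11.04 in CS, 11.21 in the LSEC fraction and 11.31 in KC monolayers, and Mpeg1, a pore-forming protein of macrophages, was at 9.24, 9.43 and 12.6, and neither was called. Adgre1, an adhesion receptor typical of rodent macrophages, was at 4.64, 4.51 and 4.68 in CS and 4.68, 4.44 and 4.70 in the LSEC fraction, against a mean of 12.9 in KC monolayers. Cd163, the target of the beads used for KCs, had a mean of 6.4 in CS and 6.9 in the LSEC fraction (0.44, adjusted p = 0.0961). Of 38 macrophage markers 9 were higher (23.7%, against 10.6% of all genes) and 2 lower (5.26%, against 13.2%) in the LSEC fraction. The list's median of 0.22 compares with 0.136 to 0.215 for all genes of low level. The lysosomal protein Cd68 was at 8.02, 7.92 and 7.92 in CS and 9.50, 9.52 and 9.2 in the LSEC fraction, with no overlap (log2 difference 1.46, standard error 0.16, adjusted p = 8.12e-07). The actin-bundling protein Lcp1 (0.96), the scavenger protein Cd5l (0.74, by 1 of 2 probe sets) and the heme oxygenase Hmox1 (0.64) were also higher, and Cd48 (−1.5) and Gpnmb (−0.68) lower. Cd5l was low in both groups, with means of 4.98 in CS and 5.72 in the LSEC fraction, against 14.2 in KC monolayers. Its call was lost under 2 alternatives. The count of higher members was 3 without LSEC replicate 3, 4 without CS replicate 2, and 5 without CS replicate 3 or LSEC replicate 2. As in any bulk sample, fewer cells of a type and less RNA per cell cannot be told apart.

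**Figure D2:**
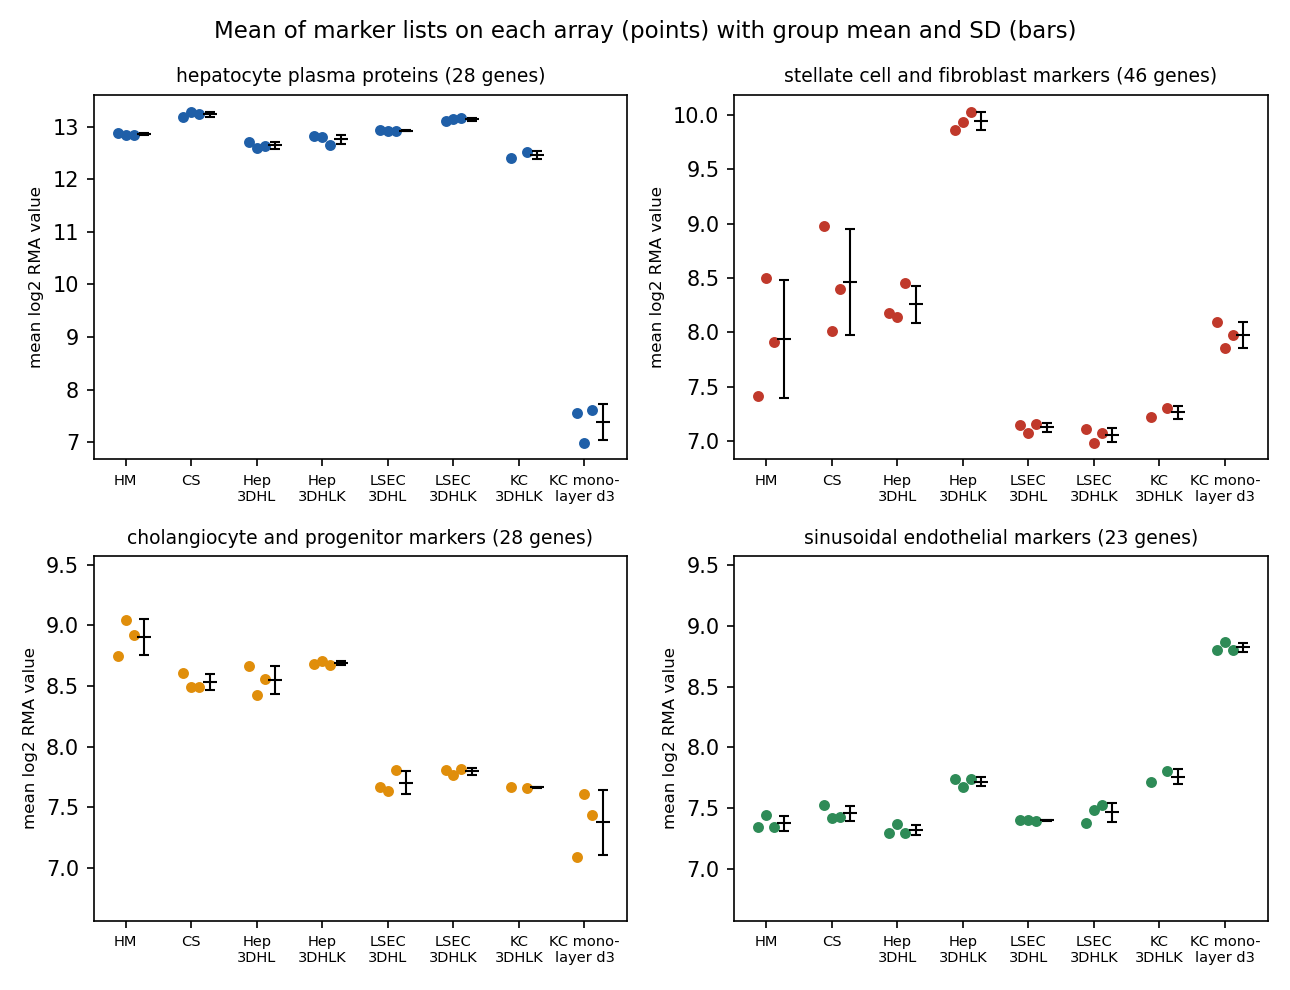
Mean log2 RMA value of 4 marker lists (one per panel, y axes with different ranges) on each array (points) in the 8 groups, with the group mean and SD (bars). The LSEC fraction of the 3DHLK model lies beside CS for plasma proteins and sinusoidal markers, and below CS for stromal and biliary markers, at 7.06 against 8.47 and 7.80 against 8.53.

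Stromal genes separated the groups most. Of 46 stellate cell and fibroblast markers 28 were lower in the LSEC fraction and 2 higher, with a median log2 difference of −1.20 against 0.06 for all genes. Sparc, a collagen-binding matrix protein, was at 12.85, 11.14 and 11.89 in CS and 6.46, 6.59 and 7.03 in the LSEC fraction. It had the largest difference of all named genes (−5.27, standard error 0.52, adjusted p = 2.41e-07). The fibrillar collagen genes followed. Col3a1 stood at 12.47, 10.19 and 11.44 in CS and 7.02, 6.0 and 6.95 in the LSEC fraction (−4.71, standard error 0.80, adjusted p = 0.00022).

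For Col1a2 the CS arrays gave 13.02, 10.96 and 11.97 and the LSEC arrays 7.56, 7.60 and 7.96 (−4.27), and for Col1a1 12.24, 10.02 and 10.84 against 7.14, 7.41 and 7.58 (−3.65). In none of these genes did the groups overlap. The calcification inhibitor Mgp (−4.68), the collagen gene Col5a2 (−4.61), smooth muscle actin Acta2 (−3.30), S100a4 (−3.08), the metalloproteinase inhibitor Timp2 (−2.89) and the intermediate filament proteins Vim (−2.12) and Des (−1.16) fell as well. Lrat, which stores retinol in stellate cells, fell by 1.09. The insulin-like growth factor binding protein Igfbp5 (0.46, by 1 of 5 probe sets) and Timp3 (1.09, by 1 of 4) were the higher ones. Pdgfrb (0.15), Dcn (0.18) and Lum (−0.01) were not called.

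CS replicates differed from each other in these genes. The list mean was 8.98, 8.01 and 8.4 in CS replicates 1, 2 and 3, and 7.11, 6.99 and 7.07 in the LSEC fraction, so that even the lowest CS array lay above all LSEC arrays. Without CS replicate 1, 25 members were lower. In the 3DHLK hepatocytes, from which the LSEC fraction had been separated, the list mean was 9.94, and 7.94 in hepatocyte monolayers. Sparc followed this order, with group means of 13.6 in the 3DHLK hepatocytes, 12.0 in CS, 10.2 in hepatocyte monolayers, 6.2 in the LSEC fraction of the 3DHL model and 7.9 in KCs of the 3DHLK model.

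Markers of biliary and progenitor cells were lower as well, with 16 of 28 lower in the LSEC fraction, 2 higher and a median of −0.57. The water channel Aqp1 was at 11.14, 8.55 and 10.54 in CS and 5.88, 6.58 and 6.27 in the LSEC fraction (−3.83, standard error 0.76, adjusted p = 0.00103). Cd24, a glycoprotein of progenitor cells, gave 9.65, 10.38 and 9.76 against 7.13, 6.39 and 6.66 (−3.20). The biliary keratin Krt19 gave 9.60, 9.77 and 9.60 against 8.69, 8.36 and 8.61 (−1.11, adjusted p = 0.00294).

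None of these groups overlapped, and in contrast to the stromal genes the CS arrays lay close together in Krt19 and in the list mean of 8.61, 8.49 and 8.49. Tspan8 (−2.38), osteopontin Spp1 (−1.77), the claudins Cldn4 (−1.37) and Cldn7 (−1.31), Epcam (−1.09) and the biliary transcription factor Onecut2 (−1.02, by 4 of 4 probe sets) also fell. Of the fetal markers Afp (0.33) and Dlk1 (0.46) were higher, with calls lost under 10 and 7 alternatives, and H19 (0.49) and Igf2 (0.34) were not called. Mesothelial markers had 6 of 18 members lower and 0 higher. Of those that fell, Cav1, Krt19, Krt7, Ezr and Krt8 are also used by other cell types, and Lrrn4 (−0.56) is known from mesothelium, but its arrays overlap and its call was lost under 8 alternatives. The mesothelial genes Msln (−0.32), Wt1 (−0.25) and Upk1b (−0.45) were not called.

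**Figure D3:**
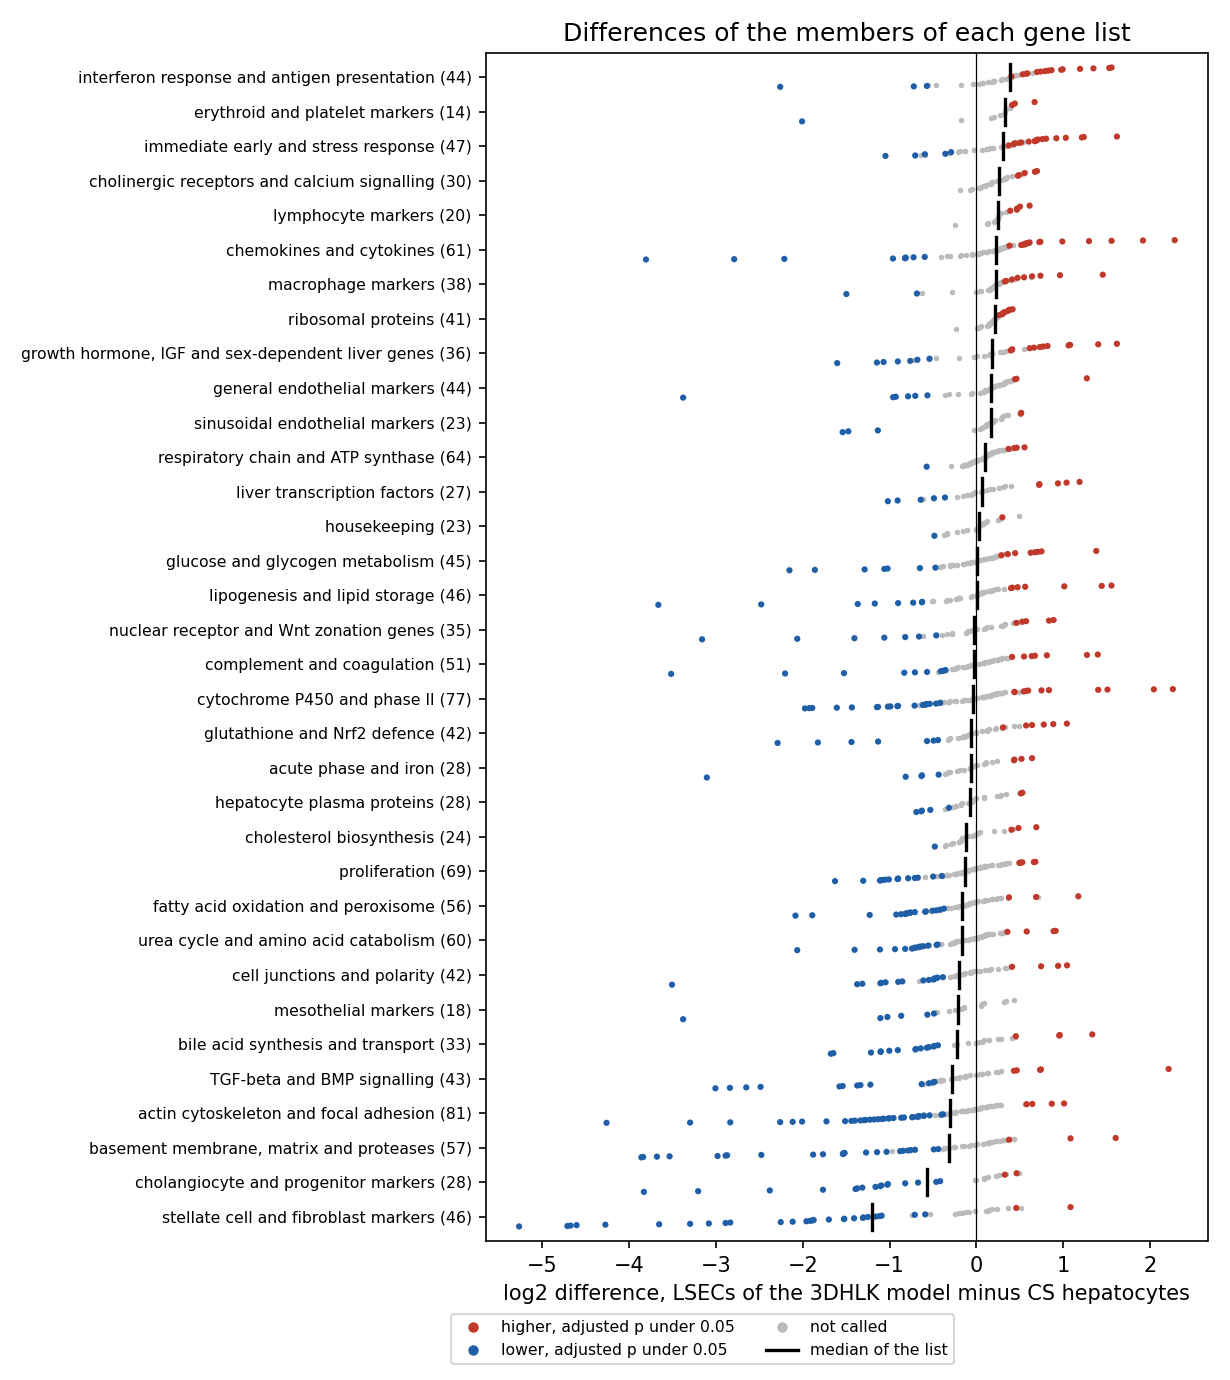
Log2 difference, the LSEC fraction of the 3DHLK model minus CS hepatocytes (x axis), of each member (points) of 34 gene lists with the number measured (y axis), in red where called higher, in blue where called lower, and with the list's median (black line). The lowest medians belong to stellate cell and fibroblast markers (−1.20) and biliary markers (−0.57), and the highest to the interferon list (0.39).

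Genes of matrix, contraction and cell contact were lower in the LSEC fraction beyond the stromal markers. Of 57 genes of basement membrane, matrix and proteases 24 were lower and 3 higher, with a median of −0.31. The type IV collagens of basement membranes, Col4a2 (−3.84) and Col4a1 (−3.68), the protease Adamts1 (−3.86), the proteoglycan Bgn (−3.53), the collagen chaperone Serpinh1 (−2.98) and the laminin Lamb1 (−1.88) fell. Col4a2 was at 11.90, 10.24 and 10.66 in CS and 7.27, 7.06 and 6.95 in the LSEC fraction, with no overlap. The metalloproteinase Mmp19 rose (1.61), from 7.29, 7.32 and 7.40 to 8.87, 9.01 and 8.94.

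Of 81 genes of the actin cytoskeleton and focal adhesions 33 were lower and 4 higher (median −0.31). The lower ones include the tropomyosin Tpm2 (−4.26, by 1 of 2 probe sets), the myosin light chain Myl9 (−2.26), the calponin Cnn1 (−1.73), the filamin Flna (−0.95), paxillin, Pxn (−1.01), talin, Tln1 (−0.74), and the focal adhesion kinase Ptk2 (−0.68). Src (0.58), Rnd3 (0.65), Parvb (0.87, by 1 of 3 probe sets) and the matricellular Ccn1 (1.01) were higher. Set beside CS, the LSEC fraction of the 3DHL model, which holds no KCs, had 18 of the same 81 genes lower and 23 higher, a median of 0.08.

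Junction genes fell in 16 of 42 cases (38.1%, against 13.2% of all genes) and rose in 4 (9.52%, near the 10.6% of all genes), with a median of −0.20. The gap junction protein Gja1 was at 11.34, 10.20 and 10.58 in CS and 7.81, 6.67 and 7.11 in the LSEC fraction (−3.51, by 2 of 3 probe sets), without overlap. Tjp1 (−0.85), Ocln (−0.49), Cldn1 (−0.90) and E-cadherin Cdh1 (−0.46, by 1 of 2 probe sets) were lower, where the call of Cdh1 was lost under 2 alternatives. The claudins of hepatocyte and other epithelial junctions Cldn2 (0.94) and Cldn14 (1.05) were higher, as was the canalicular adhesion molecule Ceacam1 (0.75, by 1 of 3 probe sets).

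In TGF-beta and BMP signalling 13 of 43 genes were lower (30.2%, against 13.2% of all genes) and 5 higher (11.6%, near the 10.6% of all genes). The ligands Inhba (−2.65), Tgfb3 (−2.49) and Tgfb2 (−1.37), the latent binding protein Ltbp1 (−2.84), the antagonist Fstl1 (−3.01) and the target Ccn2 (−1.33) fell. Gdf15, a stress-induced member of the family, stood at 10.18, 9.72 and 9.83 in CS and 11.99, 12.28 and 12.11 in the LSEC fraction, with no overlap (2.22, standard error 0.21, adjusted p = 1.95e-07). Among Wnt genes the antagonists Sfrp1 (−3.16, by 3 of 3 probe sets) and Dkk3 (−1.40, by 1 of 4) fell and Sfrp5 (0.57) rose.

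Of 33 genes of bile acid synthesis and transport 15 were lower (45.5%, against 13.2% of all genes) and 4 higher (12.1%, near the 10.6% of all genes) in the LSEC fraction, with a median of −0.22. Hepatocyte monolayers had 19 of the 33 lower than CS and 2 higher, and the 3DHLK hepatocytes 12 lower and 3 higher. Cyp7a1, the rate-limiting enzyme of bile acid synthesis, was at 6.77, 7.86 and 7.71 in CS and 5.36, 5.68 and 6.28 in the LSEC fraction (−1.68, standard error 0.28, adjusted p = 0.000164). Cyp8b1, the enzyme that directs synthesis to cholic acid, gave 9.88, 10.46 and 10.20 against 8.27, 8.77 and 8.55 (−1.65). The arrays of the groups overlapped in neither gene.

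Cyp27a1 (−1.10), the canalicular transporters Abcb4 (−0.64) and Abcc2 (−0.54) and the uptake carriers Slco1a4 (−1.0) and Slco1a1 (−0.90) fell. The uptake carriers Slco1b2 (1.34, by 2 of 2 probe sets) and Slc10a1 (0.46), the conjugating enzyme Slc27a5 (0.96) and the oxysterol hydroxylase Cyp39a1 (0.96) rose. In cytochrome P450 and phase II genes 19 of 77 were lower (24.7%, against 13.2% of all genes) and 11 higher (14.3%, against 10.6%). Their median was −0.035. Hepatocyte monolayers had 35 of these 77 genes lower than CS and 5 higher, and the 3DHLK hepatocytes 25 lower and 21 higher. Cyp17a1 (−1.97), Cyp1a1 (−1.92) and the fatty acid hydroxylase Cyp4a1 (−1.89) fell the most, and Ces1c (2.26, by 1 of 2 probe sets), Fmo1 (2.05) and Cyp2a1 (1.51) rose the most.

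Fatty acid oxidation and peroxisome genes had 17 of 56 members lower (30.4%, against 13.2% of all genes) and 3 higher (5.36%, against 10.6%), with a median of −0.16. Cpt1a, which brings long-chain fatty acids into mitochondria, was at 11.75, 11.93 and 11.95 in CS and 9.80, 9.66 and 9.91 in the LSEC fraction (−2.08, standard error 0.16, adjusted p = 5.78e-09). Acot1 (−0.71), which splits acyl-CoA, the peroxisomal enzyme Ehhadh (−0.77), the peroxisome gene Pex11a (−0.92) and Decr1 (−0.79), which acts on unsaturated fatty acids, were also lower. The ketone body enzyme Bdh1 rose (1.18). In the LSEC fraction of the 3DHL model 35 of the same 56 genes were lower than in CS and 1 was higher. Hepatocyte monolayers had 34 of them lower than CS and 1 higher, and the 3DHLK hepatocytes 20 lower and 2 higher.

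Of 60 genes of the urea cycle and amino acid catabolism 15 were lower (25%, against 13.2% of all genes) and 4 higher (6.67%, against 10.6%), with a median of −0.17 (7 lower without CS replicate 3, 9 without CS replicate 2 or without LSEC replicate 1). Levels below CS were not particular to the LSEC fraction. Against CS, hepatocyte monolayers had 45 of the 60 genes lower and 0 higher, and the 3DHLK hepatocytes 47 lower and 4 higher. The serine dehydratase Sds was at 9.67, 10.41 and 10.38 in CS and 7.95, 8.15 and 8.17 in the LSEC fraction (−2.06). The alanine aminotransferase Gpt (−1.40) and the branched-chain dehydrogenase subunit Bckdha (−1.11, by 1 of 2 probe sets) fell, and the glutamine synthetase Glul (0.89, by 3 of 3), the kynurenine hydroxylase Kmo (0.91) and the cysteine dioxygenase Cdo1 (0.58) rose. Sds and Pck1 (−1.06), the gluconeogenic enzyme, are known from periportal hepatocytes, and Glul and Cyp1a2 (0.84) from pericentral ones. These genes were picked as examples, and a shift between the zones was not tested. Glul was also high in KC monolayers, with a mean of 13.5. Over all 35 genes of zonation and Wnt signalling 7 were lower (20%, against 13.2% of all genes) and 5 higher (14.3%, against 10.6%), with a median of −0.022.

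Of 46 genes of lipogenesis and lipid storage 8 were lower (17.4%) and 7 higher (15.2%), with a median of 0.01, shares near the 13.2% and 10.6% of all genes. The desaturase Scd2 was at 11.93, 12.73 and 12.05 in CS and 8.89, 8.75 and 8.08 in the LSEC fraction (−3.66, by 4 of 4 probe sets, adjusted p = 1.13e-09), and the lipases Lpl (−2.48) and Lipc (−1.37) fell. Pnpla3, a lipid droplet protein induced by feeding, was at 9.69, 9.60 and 9.71 in CS and 10.96, 11.38 and 11.32 in the LSEC fraction (1.56, by 3 of 3), and Fasn (0.48) and Angptl8 (1.01) were also higher.

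The liver pyruvate kinase Pklr was higher (1.38). G0s2, an inhibitor of fat breakdown, rose (2.0), from 10.24, 10.60 and 10.17 to 12.08, 12.68 and 12.24. Of 45 glucose and glycogen genes 8 were higher (17.8%, 4 to 6 genes with 1 array left out) and 7 lower (15.6%). The isoforms of other tissues Ldhb (−2.15), Pfkp (−1.86) and Eno2 (−1.29) were among the latter. Liver transcription factors had 5 of 27 members higher (18.5%, against 10.6% of all genes), led by Foxa3 (1.19). Another 5 were lower (18.5%, against 13.2%), led by Onecut2, and the coactivator Ppargc1a (−0.91, by 3 of 3 probe sets) was lower.

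**Figure D4:**
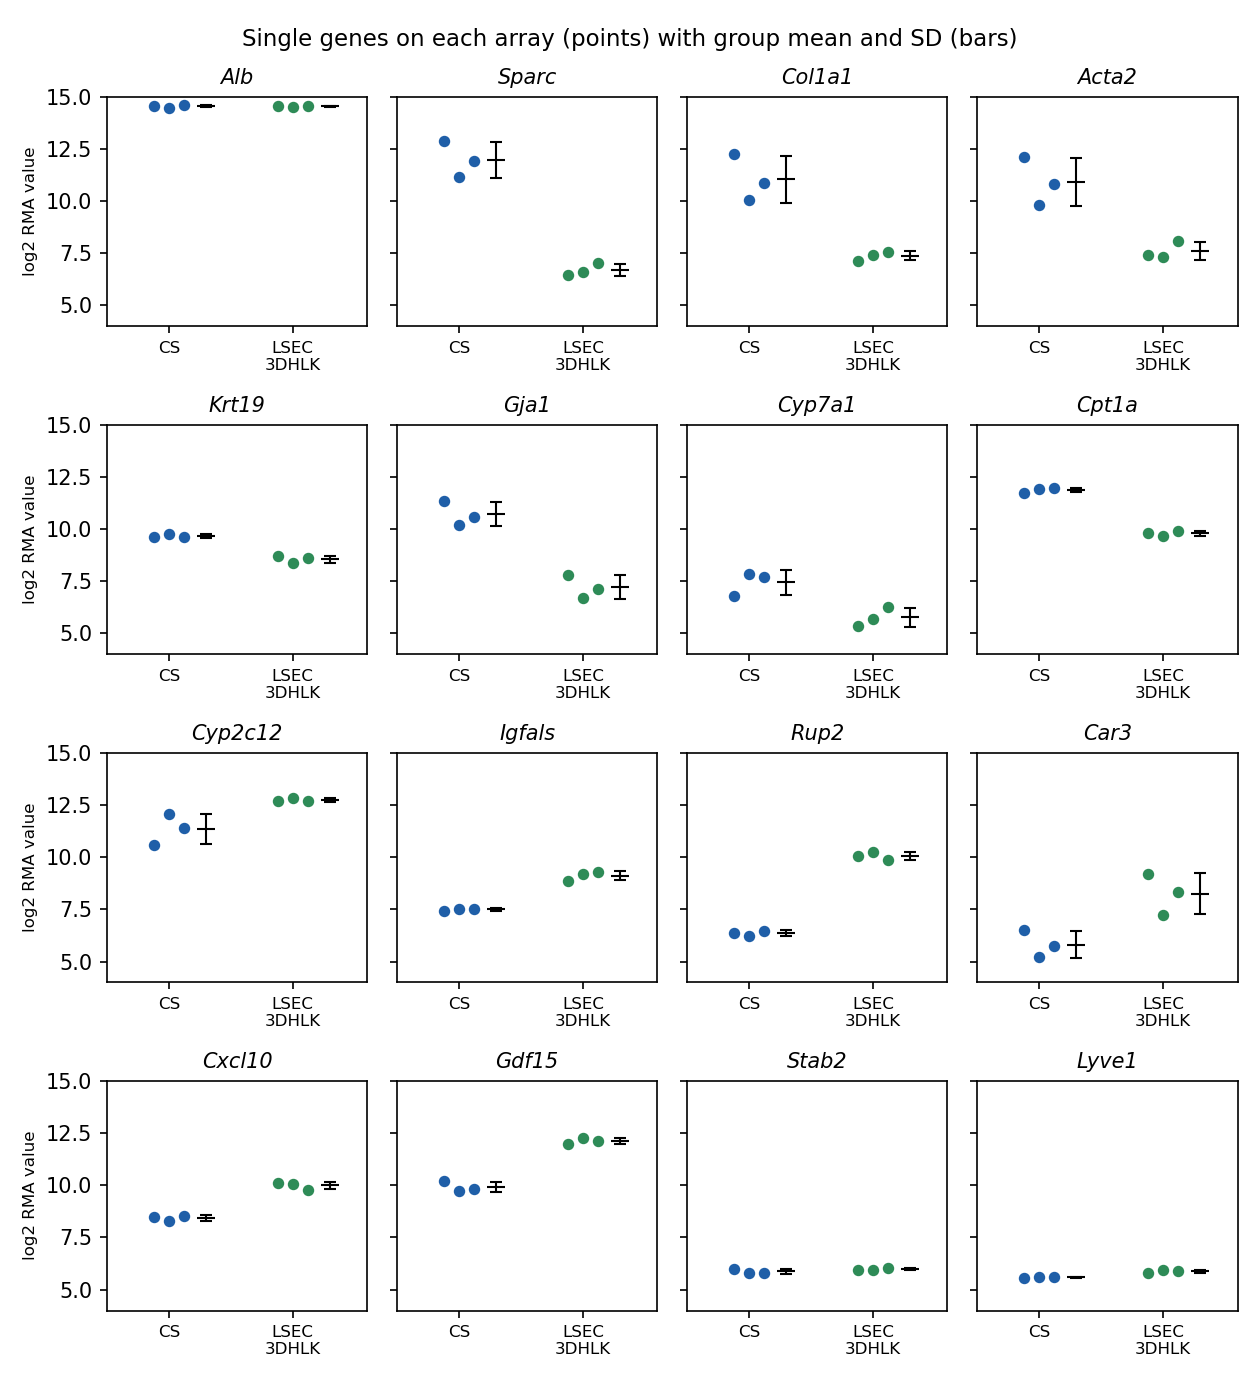
Log2 RMA value (y axis) of 16 genes on each of the 3 CS arrays (blue points) and the 3 LSEC arrays of the 3DHLK model (green points), with the group mean and SD (bars). Alb, Stab2 and Lyve1 were not called, Sparc, Col1a1, Acta2, Krt19, Gja1, Cyp7a1 and Cpt1a are lower in the LSEC fraction, and Cyp2c12, Igfals, Rup2, Car3, Cxcl10 and Gdf15 are higher.

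Of 36 genes that depend on growth hormone, belong to the IGF system or differ between the sexes in rat liver, 11 were higher, 7 lower and 18 not called in the LSEC fraction, with a median of 0.18. The shares were 30.6% higher and 19.4% lower, against 10.6% and 13.2% of all genes. Cyp2c12, the P450 typical of female rat liver, was at 10.60, 12.05 and 11.38 in CS and 12.71, 12.85 and 12.68 in the LSEC fraction (1.40, standard error 0.29, adjusted p = 0.00121). Igfals, the acid-labile subunit that carries IGF in blood, gave 7.43, 7.54 and 7.52 against 8.86, 9.2 and 9.29 (1.62, standard error 0.15, adjusted p = 1.52e-07). Neither pair of groups overlapped.

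The growth hormone receptor Ghr (0.41), the prolactin receptor Prlr (0.82), Stat5b (0.73), the female-biased repressor Cux2 (0.62), A1bg (0.77), Esr1 (0.67) and Hsd17b2 (1.08) were higher as well. Cyp2c11, the P450 typical of male rat liver, fell from 6.19, 6.04 and 6.15 to 5.03, 4.94 and 4.98 (−1.15), at a low level in both groups, and Hsd3b5 (−1.60), Igfbp3 (−1.07, by 2 of 2 probe sets), which binds IGF together with Igfals, Slco1a1 (−0.90), the receptors Igf2r (−0.76) and Igf1r (−0.54) and the repressor Bcl6 (−0.68) were lower too. Other genes that differ between the sexes, such as Cyp2c7 (0.56), Cyp2a2 (0.18), Cyp2c13 (0.28) and Cyp3a2 (0.01), were not called. With 1 array left out, 7 to 11 members were higher, the lowest without CS replicate 3, LSEC replicate 2 or LSEC replicate 3. Xist, the RNA of the inactive X chromosome, was at 11.08, 10.68 and 10.75 in CS and 10.47, 10.41 and 10.25 in the LSEC fraction and was not called (adjusted p = 0.0548).

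Of 51 complement and coagulation genes 7 were higher (13.7%) and 9 lower (17.6%, 4 to 8 genes with 1 array left out). These shares are near the 10.6% and 13.2% of all genes. The mannose-binding lectin Mbl2 rose (1.40, by 2 of 2 probe sets), from 10.08, 10.40 and 10.25 to 11.61, 11.59 and 11.73, and C4bpb (1.27), Mbl1 (0.81) and plasminogen, Plg (0.68), were higher. The plasminogen activators Plau (−3.52) and Plat (−2.20) fell. Plau was at 8.94, 9.07 and 8.82 in CS and 5.32, 5.13 and 5.83 in the LSEC fraction. In acute phase and iron genes 4 of 28 were higher (14.3%) and 5 lower (17.9%, 3 to 5 genes with 1 array left out), again near the shares of all genes. The lower ones include the metalloreductase Steap4 (−3.10) and the iron exporter Slc40a1 (−0.81, by 3 of 3 probe sets). Of 42 genes of glutathione and Nrf2 defence 6 were higher (14.3%), led by the amino acid carrier subunit Slc3a2 (1.04) and Gpx1 (0.89). The 7 lower ones (16.7%) were led by Gpx3 (−2.29), and both shares are also near those of all genes.

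Of 44 genes of interferon response and antigen presentation 15 were higher in the LSEC fraction, 3 lower and 26 not called, with a median of 0.39. The shares were 34.1% higher and 6.82% lower, against 10.6% and 13.2% of all genes. Those not called include the interferon-induced genes Mx1 (−0.18), Irf1 (−0.03), Ifi44l (−0.56), Ifit3 (0.36) and Rsad2 (0.43). Cxcl10, a ligand of the receptor Cxcr3, was at 8.50, 8.29 and 8.53 in CS and 10.11, 10.08 and 9.80 in the LSEC fraction (1.56, standard error 0.14, adjusted p = 5.54e-08). Its relatives Cxcl9 and Cxcl11, also ligands of Cxcr3, were at 9.81, 9.40 and 9.48 against 11.52, 11.38 and 11.57 (1.92) and at 4.59, 4.82 and 4.63 against 7.03, 7.07 and 6.79 (2.29). Cxcl9 and Cxcl11 belong to the chemokine list and not to the 44 genes counted here. All 3 chemokines were above the CS range on every LSEC array.

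Isg15 (1.20), a ubiquitin-like modifier, the factor Irf7 (0.99), Oas1a (0.98), Usp18 (0.87), the GTPase Igtp (1.35, by 1 of 2 probe sets), the immunoproteasome subunit Psmb8 (0.74), the peptide transporters Tap1 (0.41) and Tap2 (0.59) and the class I gene RT1-CE5 (1.53, by 5 of 5 probe sets) were higher. Bst2, a membrane protein that interferon induces and that holds back virus release, was at 10.11, 10.24 and 9.83 in CS and 12.15, 12.10 and 12.27 in the LSEC fraction (2.11). Bst2 is not a member of the interferon list and was named among the largest rises. The class II loading genes RT1-DMa (−2.26) and RT1-DMb (−0.72) fell, as did Stat2 (−0.57, by 1 of 2 probe sets). Class II genes did not fall as a whole. RT1-Ba (0.53) was higher, and RT1-Da (0.34), RT1-Db1 (0.18), RT1-Bb (0.2) and the invariant chain gene Cd74 (0.46) were not called. Class I genes of the rat share long stretches of sequence, so that a probe set can read several of them.

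The promoters of the interferon list were searched on both strands for GAAA, any 2 bases and GAAA again, the core of the element bound by interferon-stimulated factors, where matches may overlap. The windows run from 250 bases before to 50 after the start of the gene (RefSeq, GRCr8), and 35 of the 44 measured members have one. The motif was in 21 of these 35 (60.0%), in 3.92% of all 33469 promoters of the table and in 3.01% of those of genes tested here. The list was chosen as interferon genes, so that a high share of the motif follows from the choice and tells nothing of these samples. The motif was present in 8 of the 11 members called higher, in 0 of the 2 called lower and in 13 of the 22 not called. Whether the members called higher and those not called differ in this was not tested. Tap1 and Psmb9 share a start region, so that their windows overlap. The promoters of the 3 called members with the motif and the largest differences are shown 5′ to 3′ on the strand of the gene, with the motif in capitals (a match on the opposite strand reads TTTC, 2 bases and TTTC). Cxcl10 lies at chr14:15988816-15989115 (plus strand), Igtp at chr10:42874797-42875096 (plus strand) and Irf7 at chr1:205799974-205800273 (minus strand).
Cxcl10: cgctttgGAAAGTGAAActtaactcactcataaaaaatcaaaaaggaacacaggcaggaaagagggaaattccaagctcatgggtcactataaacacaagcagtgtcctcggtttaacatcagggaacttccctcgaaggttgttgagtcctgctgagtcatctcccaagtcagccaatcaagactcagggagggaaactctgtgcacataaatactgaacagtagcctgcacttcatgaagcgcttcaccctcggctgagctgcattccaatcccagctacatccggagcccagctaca
Igtp: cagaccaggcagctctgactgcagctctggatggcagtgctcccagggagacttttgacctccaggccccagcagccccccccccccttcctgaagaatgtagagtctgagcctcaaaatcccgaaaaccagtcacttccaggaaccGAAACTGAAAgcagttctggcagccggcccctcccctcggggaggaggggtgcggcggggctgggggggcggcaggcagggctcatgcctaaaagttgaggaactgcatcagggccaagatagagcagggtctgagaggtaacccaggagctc
Irf7: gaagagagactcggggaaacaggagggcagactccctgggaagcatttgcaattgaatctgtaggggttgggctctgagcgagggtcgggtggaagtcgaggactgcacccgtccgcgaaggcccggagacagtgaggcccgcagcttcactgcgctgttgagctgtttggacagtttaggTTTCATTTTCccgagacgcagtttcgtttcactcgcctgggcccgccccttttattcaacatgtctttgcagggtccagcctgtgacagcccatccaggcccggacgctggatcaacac
A match describes these letters and is not a measured binding site.

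Of 61 chemokines and cytokines 15 were higher and 9 lower. Besides the Cxcr3 ligands, Lif (1.30), Il33 (0.99), Il10 (0.74), the interleukin 1 antagonist Il1rn (0.73), Ccl3 (0.61), Cxcl1 (0.59) and Il1b (0.54) were higher. Il1rl1, the receptor of interleukin 33, fell from 10.89, 9.99 and 10.53 to 7.57, 6.09 and 6.34 (−3.81, by 2 of 2 probe sets). The monocyte attractant Ccl2 was at 9.91, 9.99 and 9.55 in CS and 8.24, 6.28 and 6.57 in the LSEC fraction (−2.79), and Ccl20 (−2.21), Csf1 (−0.96), Cx3cl1 (−0.82) and Ccl7 (−0.82) were lower.

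Immediate early and stress genes had 19 of 47 members higher (40.4%, against 10.6% of all genes) and 5 lower (10.6%, against 13.2%), with a median of 0.31. Atf3, a factor of the stress response, was at 9.78, 10.16 and 10.26 in CS and 11.61, 11.73 and 11.72 in the LSEC fraction (1.62, standard error 0.19, adjusted p = 2.55e-06). The growth arrest genes Gadd45a (1.24) and Gadd45b (1.22), the p53 regulator Mdm2 (0.92), Klf10 (1.03), Jun (0.71), Myc (0.69) and Ddit3 (0.50) rose, and Nr4a1 (−1.05) and Klf4 (−0.70) fell.

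Of 69 proliferation genes 15 were lower (21.7%, against 13.2% of all genes) and 5 higher (7.25%, against 10.6%). Mki67, a marker of cycling cells, was at 8.70, 7.60 and 8.36 in CS and 6.93, 5.98 and 6.87 in the LSEC fraction (−1.63, standard error 0.26, adjusted p = 0.00011), and Cdk1 (−1.08), Ccna2 (−0.78) and Ccnd1 (−0.90) fell. Without CS replicate 1 the count of lower members was 9, beside 1914 of 14217 genes in all, a like share, and without LSEC replicate 2 it was also 9. The cell cycle inhibitor Cdkn2c (0.53, by 1 of 2 probe sets) and the replication factor Rfc4 (0.68) were among those higher.

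Other lists moved little. The respiratory chain had 4 of 64 members higher and 1 lower (median 0.10, 1 to 3 higher with 1 array left out), cholesterol biosynthesis 3 of 24 higher and 1 lower (median −0.11, 1 to 3 higher), and 23 housekeeping genes 1 higher and 1 lower (median 0.03). Of 41 ribosomal proteins 8 were higher and 0 lower, with a median of 0.21 and differences of 0.26 to 0.42 among those called (2 to 6 higher with 1 array left out, the fewest without CS replicate 3). Genes of blood cells and of cholinergic receptors are mostly of low level here. Of 20 lymphocyte markers 5 were higher (median 0.26, 1 without CS replicate 2, CS replicate 3 or LSEC replicate 3), of 14 erythroid and platelet markers 3 higher and 1 lower (median 0.33, 0 higher without CS replicate 2 or LSEC replicate 3), and of 30 cholinergic and calcium signalling genes 5 higher (median 0.26, 2 without CS replicate 3 or LSEC replicate 2). The lymphocyte genes Cd3d (0.47) and Zap70 (0.50) had LSEC means of 6.2 and 7.8.

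Beyond the lists, the largest rises were mostly secreted proteins and enzymes. Bst2 (2.11) and G0s2 (2.0), given above, are also outside the lists. Rup2, named as a urinary protein, was at 6.38, 6.22 and 6.48 in CS and 10.04, 10.23 and 9.86 in the LSEC fraction, and all 4 of its probe sets were higher (3.68, standard error 0.34, adjusted p = 1.22e-07). The serpin Serpina3c gave 6.57, 7.04 and 6.70 against 9.58, 9.42 and 9.26 (2.65), and its close relative Serpina3l rose too (2.17), where a probe set may read both. The carbonic anhydrase Car3 was at 6.49, 5.20 and 5.75 in CS and 9.18, 7.25 and 8.34 in the LSEC fraction (2.44, by 2 of 2 probe sets), without overlap.

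In other hepatocyte cultures the mean of Car3 was 11.2 in monolayers, 10.35 in the 3DHL model and 9.14 in the 3DHLK model. The aminopeptidase Xpnpep2 (1.96), the carboxypeptidase Cpa1 (1.95) and the phospholipid enzymes Plaat1 (1.80, by 1 of 2 probe sets) and Plaat5 (1.70) complete the largest rises. Among the largest falls outside the matrix genes were Armcx2 (−3.97), the annexin Anxa1 (−3.79), the collectrin gene Cltrn (−3.73), the immunoglobulin domain protein Mxra8 (−3.72) and the neuropeptide Npy, which was at 12.44, 12.72 and 12.64 in CS and 9.59, 8.71 and 8.33 in the LSEC fraction (−3.72).

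The comparison was set beside others that share some or none of its arrays. The LSEC fraction of the 3DHL model differed from CS in 22.5% of genes (8.98% higher, 13.5% lower), and the 3DHLK hepatocytes from CS in 34.4% (16.4% higher, 18% lower). Against CS, the log2 difference of Sparc was −5.27 for the 3DHLK LSEC fraction and 1.62 for the hepatocytes under them, and of the 46 stromal markers 28 were lower and 2 higher in the former and 2 lower and 28 higher in the latter. The LSEC fraction of the 3DHL model and hepatocyte monolayers share no array with the comparison above, with 33% of genes called, 15.5% up and 17.5% down in the LSEC fraction. There 16 of 46 stromal and 16 of 28 biliary markers were lower in the LSEC fraction, 15 of 44 interferon genes were higher and 3 lower, and 10 of 33 bile acid genes were higher and 10 lower. Rup2, Cxcl11 and Gdf15 had means of 8.5, 8.3 and 12.2 in the LSEC fraction of the 3DHL model and 5.0, 5.7 and 10.2 in monolayers. Against the hepatocytes of its own 3DHLK cultures the LSEC fraction differed in 60.4% of genes (34.7% higher, 25.7% lower), with 35 of 46 stromal markers lower and a list median of −3.01.

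**Figure D5:**
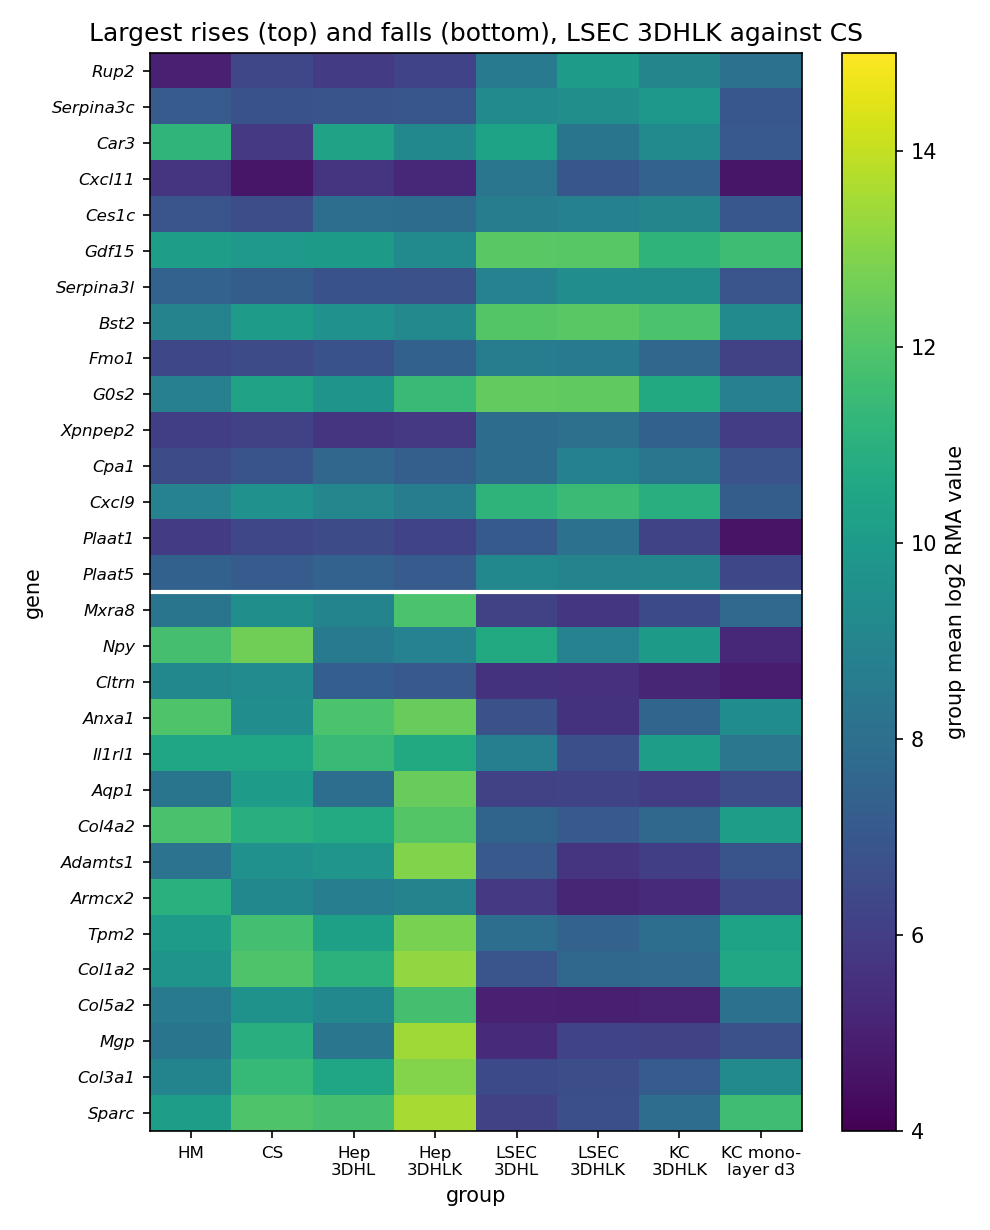
Group mean log2 RMA value (colour) of the 15 largest rises (above the white line) and the 15 largest falls (below it) of the LSEC fraction of the 3DHLK model against CS, in the 8 groups (columns; KC of the 3DHLK model with 2 arrays, the others with 3). Sparc and Col1a2 are at 13.6 and 13.2 in 3DHLK hepatocytes, and at 6.2 and 6.9 in the LSEC fraction of the 3DHL model.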

How the data were processed

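RNA was hybridised by the authors to Affymetrix GeneChip rat genome arrays, after amplification per the labels, and they deposited log2 values after RMA for 31099 probe sets on 23 arrays. Scanner files and detection calls were not used here, so that no background level is known. GEO's platform annotation names 1 gene for 20826 probe sets, several for 436 and none for 9780, with 57 controls left out. For each of 14217 genes the probe set of highest mean value on the 23 arrays was kept. Group means of all 8 groups were fitted with limma 3.58.1 (R 4.3.3; empirical Bayes, 6.28 prior and 15 residual degrees of freedom), and p-values were Benjamini-Hochberg adjusted over all genes, with a threshold of 0.05. All groups shared one estimate of the spread, so that each standard error also reflects groups outside the comparison, among them the KC monolayers. The script was tested on simulated data. Figures were drawn with matplotlib 3.10.9.

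Named genes were the 15 largest rises and falls with no overlap of arrays (genes known only by LOC, RGD, MGC or Rik names left out), the 3 largest rises and falls called in each of 34 lists, the 3 highest members of each marker list in either group, and Alb, Stab2, Lyve1, Pecam1, Vwf, Cd163, Adgre1, Col1a1, Krt19 and Xist. Other list members named in the text were chosen after their values were seen. The members and lists were chosen with earlier results of these data known. The alternatives were the 6 arrays alone, the fit without KC monolayers, a replicate block, other probe set rules, a filter on low values, cyclic loess, centring on 23 housekeeping genes, trended robust variances, and leaving out each array. Groups of 3 arrays were not tested for outliers.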

Additional observations from a re-analysis of the deposited data

How the results depend on the processing

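Of the 195 named genes that were called, 145 were called the same way under every alternative, and of 18 not called 7 were called under at least 1. The calls of Erg, Fcgr2b, Igfbp5, Stat2, Cdkn2c and Zap70 were lost under 7, 5, 6, 8, 6 and 6 alternatives. With the 6 arrays alone 2599 genes were higher, without KC monolayers 3051. The labels do not say whether a replicate number marks a shared animal or day. Deviations from the group means correlated at −0.062, 0.078 and −0.026 between same-numbered arrays, and at −0.148 to 0.133 between other-numbered ones. With 3 arrays per group these values cannot show whether the numbers pair the samples. With the replicate number as a block 1354 genes were higher and 1771 lower, and 3091 of the 3376 calls were shared. Leaving out 1 array gave 773 to 1240 higher and 1256 to 1914 lower genes. Members higher with the 6 arrays alone were 10 in the respiratory chain, 15 among macrophage markers, 8 erythroid, 24 chemokines, 13 cholinergic and 4 housekeeping, and 9 acute phase and 4 housekeeping genes were lower. Without KC monolayers 5 cholesterol, 8 respiratory, 9 lymphocyte, 9 erythroid, 13 cholinergic, 18 ribosomal and 2 housekeeping genes were higher, and 9 acute phase and 4 housekeeping genes lower. With the 6 arrays and the block 7 respiratory, 5 erythroid and 9 cholinergic genes were higher and 2 housekeeping genes lower. With the mean of all probe sets 1 cholesterol and 3 lymphocyte genes were higher and 4 housekeeping genes lower, and Klf2 (−0.24), Parvb (−0.06) and Stard4 (−0.32) turned sign. With the highest probe set over the 6 arrays 2 housekeeping genes were lower. Above the 30th percentile 1 lymphocyte, 1 erythroid and 1 cholinergic gene were higher, and 3 liver transcription factors and 9 proliferation genes lower. Cyclic loess gave 9 respiratory, 3 lymphocyte and 1 erythroid genes higher and 3 plasma proteins lower. Housekeeping centring gave 5 cholesterol, 2 lymphocyte, 1 erythroid, 2 cholinergic and 0 housekeeping genes higher and 3 plasma proteins lower. Trended robust variances gave 15 ribosomal and 2 housekeeping genes higher and 8 acute phase genes lower. With 1 array left out, lower members were 1 to 4 plasma proteins, 3 to 4 liver transcription factors, 7 to 18 urea cycle, 4 to 8 complement, 3 to 5 acute phase, 3 to 5 general endothelial, 9 to 15 proliferation and 4 to 5 glutathione genes, and higher members 1 to 3 cholesterol, 4 to 6 glucose, 1 to 3 respiratory, 3 to 7 macrophage, 1 to 5 lymphocyte, 0 to 2 erythroid, 7 to 11 growth hormone, 2 to 7 cholinergic, 2 to 6 ribosomal and 0 housekeeping genes. The median of liver transcription factors ranged from −0.056 without LSEC replicate 1 to 0.084 without CS replicate 1, and that of zonation genes from −0.057 without LSEC replicate 1 to 0.038 without CS replicate 2. The causes were not tested. Signal over background is unknown, so that low values carry no detection call.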
